A study of Mus musculus with 6 samples.

Results

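The Ikaros family comprises 5 genes for zinc-finger transcription factors: Ikzf1 (Ikaros), Ikzf2 (Helios), Ikzf3 (Aiolos), Ikzf4 (Eos) and Ikzf5 (Pegasus). Open chromatin at these genes was described from ATAC-seq peaks, where ATAC-seq uses a transposase to insert adapters into accessible DNA. A peak was taken as a member of the family when its midpoint lay in the body of one of these genes, or lay between genes with one of them as the nearest protein-coding gene within 100 kb. This rule gave 43 of the 36182 peaks of the KO list and 35 of the 38258 peaks of the WT list, 78 member peaks in all, at 4 of the 5 genes. Peaks of the KO list came from regulatory T (Treg) cells of Bcl11b f/f Foxp3-IRES-YFP-Cre mice, and those of the WT list from Treg cells of Bcl11b w/w Foxp3-IRES-YFP-Cre mice, with 3 samples in each group, all on the C57BL/6 background. All 6 samples were CD4+ YFP+ cells sorted from spleen and draining lymph nodes, with 100000 cells lysed per sample. Both groups carry the Cre and YFP alleles, and the Cre is driven from the Foxp3 locus, so deletion is limited to cells that have expressed Foxp3. Neither the ages of the mice nor the deleted part of Bcl11b is given in the labels.

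The proteins of this family bind DNA through zinc fingers near their amino terminus and pair with each other through a second set of zinc fingers at the carboxyl terminus. Ikaros and its relatives recruit chromatin-remodelling and corepressor complexes, and they are best known as regulators of lymphocyte development. In Treg cells, Helios marks most cells of thymic origin and contributes to their stability, and Eos acts with Foxp3 in gene silencing. Aiolos is prominent in B cells and is also expressed in T cells, whereas Pegasus is the most divergent member and is widely expressed.

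A member peak is called KO-only when no WT peak overlapped it by at least 1 bp, WT-only when no KO peak did, and shared otherwise. Each group had 1 list for its 3 samples together and the lists carried no read counts. The depth per sample and the spread between samples are therefore unknown, and differences are given without a replicate check and without a p-value. A peak missing from a list was not called there, and the site may still have been accessible. Exact Clopper-Pearson 95% intervals are given for shares and cover counting error only.

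Gene starts were available for Ikzf1 and Ikzf5 in the RefSeq promoter table (GRCm38.p6, the coordinates of mm10), which gives 250 bases before to 50 after each start. These windows are printed because the only KO-only peak within 1 kb of a listed start of the family lay just downstream of the second start of Ikzf1, because the first start of that gene had a shared peak close by, and because peaks of both lists lay just upstream of the start of Ikzf5. Capitals mark bases under a peak: the KO peak in the second window, and the stretch covered by both the KO and the WT peak in the third. The first window holds no base under a peak.
Ikzf1 first start, chr11:11685675-11685974, plus strand: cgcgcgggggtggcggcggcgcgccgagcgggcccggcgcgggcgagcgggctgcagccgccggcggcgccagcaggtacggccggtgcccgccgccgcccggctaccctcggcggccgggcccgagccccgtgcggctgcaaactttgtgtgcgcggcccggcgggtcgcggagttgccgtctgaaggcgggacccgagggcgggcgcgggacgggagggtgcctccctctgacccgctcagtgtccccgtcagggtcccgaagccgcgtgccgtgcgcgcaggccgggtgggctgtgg
Ikzf1 second start, chr11:11689927-11690226, plus strand: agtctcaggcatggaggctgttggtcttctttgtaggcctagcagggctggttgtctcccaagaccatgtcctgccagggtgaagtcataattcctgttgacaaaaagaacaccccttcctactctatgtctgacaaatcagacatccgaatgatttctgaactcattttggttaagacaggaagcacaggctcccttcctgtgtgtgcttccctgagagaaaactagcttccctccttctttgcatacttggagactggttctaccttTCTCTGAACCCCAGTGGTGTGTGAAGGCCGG
Ikzf5 start, chr7:131410429-131410728, minus strand: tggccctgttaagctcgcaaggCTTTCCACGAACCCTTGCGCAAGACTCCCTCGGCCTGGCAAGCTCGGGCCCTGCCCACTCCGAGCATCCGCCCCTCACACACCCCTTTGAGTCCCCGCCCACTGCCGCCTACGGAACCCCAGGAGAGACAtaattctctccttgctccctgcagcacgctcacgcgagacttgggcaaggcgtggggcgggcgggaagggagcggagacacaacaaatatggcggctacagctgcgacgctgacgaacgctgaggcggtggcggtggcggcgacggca

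The 2 Ikzf1 windows differed in base composition. The first window was 81.3% G and C with 52 CG dinucleotides, and the second was 49.0% G and C with 2. The Ikzf5 window lay between them at 65.7% with 27 CG dinucleotides, and the median over all 32851 windows of the table was 52.7% with 7. Letters searched on both strands were GGGAA, the core of sites bound by Ikaros proteins, and AGGAAG or CGGAAG, letters of ETS sites. The second Ikzf1 window held GGGAA 2 times and the ETS letters 3 times, with no overlap between them. GGGAA was found 1 time in the Ikzf5 window and not in the first Ikzf1 window, and the ETS letters in neither. The GC box GGGCGG was found 2 times in the first Ikzf1 window, 4 times in the Ikzf5 window and not in the second Ikzf1 window. In the whole table, 62.7% of windows held GGGAA, 46.5% the ETS letters and 35.7% the GC box, so each is common. The letters TGTGGT (Runx), TGACTCA (AP-1) and TGACCA (the core of Bcl11b family sites) were found in none of the 3 windows. They occurred in 16.8%, 5.20% and 13.6% of all windows, in that order. A match is a description of letters only.

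Over the family, KO-only peaks outnumbered WT-only peaks, and shared peaks were the most numerous class. Of the 43 KO peaks 16 were KO-only (37.2%, interval 23.0 to 53.3%), against 25.4% of all KO peaks. Of the 35 WT peaks 8 were WT-only (22.9%, 10.4 to 40.1%), against 29.5% of all WT peaks. The other 27 peaks of each list overlapped each other. Among the 24 peaks found in a single list, 66.7% were KO-only (44.7 to 84.4%), and over the whole lists 44.9% were. The whole-list value lay just inside the family's interval. The surplus stood at Ikzf1, Ikzf2 and Ikzf3, at Ikzf4 the numbers were equal, and at no member did WT-only peaks prevail. Without Ikzf2, the member with most peaks, 9 of 13 peaks were KO-only (69.2%, 38.6 to 90.9%). The median difference of KO-only minus WT-only peaks was 1 over the 5 members and 0 over the 14588 protein-coding genes with a peak. KO-only peaks were the more numerous at 20.3% of those genes. Those genes include ones with no genotype-specific peak, and most have fewer peaks than Ikzf1 or Ikzf2, so the share is not a like comparison for the members.

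**Figure D1:**
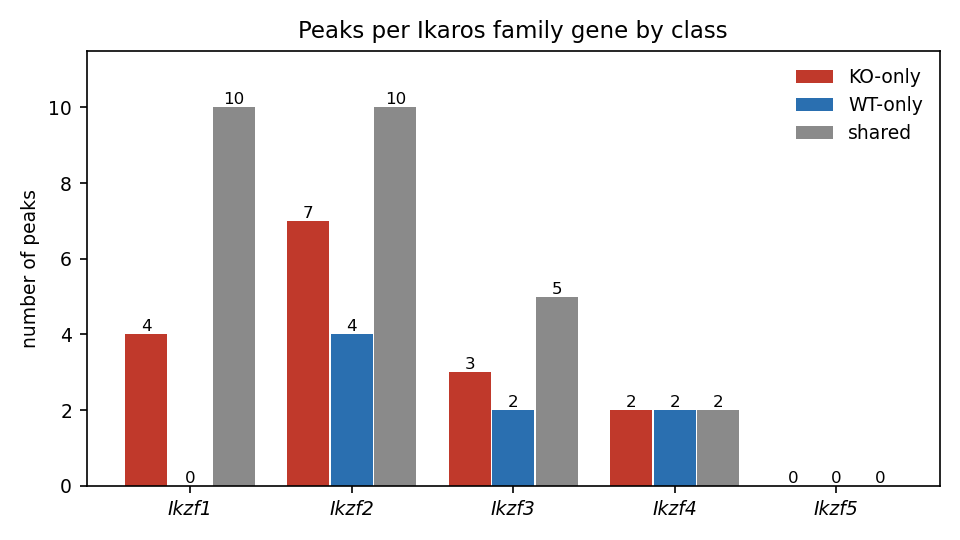
Number of KO-only, WT-only and shared peaks (vertical axis) at each of the 5 Ikaros family genes (horizontal axis), shared peaks counted in the WT list. Ikzf1 has 4 KO-only peaks and no WT-only peak, Ikzf2 has the most peaks of all classes together, and Ikzf5 has none.

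Ikzf1 encodes Ikaros, the founding member, which is expressed throughout the lymphoid lineage. The gene spans 11684962 to 11772930 on chromosome 11, between 4930512M02Rik, 57.1 kb below it, and Fignl1, 27.4 kb above it. It had 14 peaks in the KO list, against 10 in the WT list. All 10 WT peaks were shared and 4 KO peaks had no WT counterpart. At least 4 KO-only peaks together with 0 WT-only peaks were found at 37 of the 14588 protein-coding genes with a peak (0.254%). A surplus of at least 3 KO-only peaks, as at Ikzf1 and Ikzf2, was found at 243 genes (1.67%), and at least as many peaks as at Ikzf1 at 300 genes (2.06%). Genes with few peaks cannot reach these counts, so the small shares partly reflect the number of peaks per gene. The shares among genes as rich in peaks as Ikzf1 were not computed. With only 4 such peaks at Ikzf1, the exact interval of the KO-only share reached down to 39.8%, which takes in the whole-list share of 44.9%.

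The KO-only peak of Ikzf1 that stood highest in its list was at 11690196 to 11690388. Its midpoint lay 115 bp downstream of the second RefSeq start of the gene, and it covered the last 31 bases of the second window printed above. No WT peak was called within 3.85 kb of it. The peak stood in the first 24.3% of the rows of the KO list. The shared peak next to the first start (KO list, 11686119 to 11686311) had its midpoint 290 bp downstream of that start, and its WT counterpart 311 bp downstream. In row order the shared peak stood at 30.9% of the KO list and 22.1% of the WT list. The second start thus had a peak nearby in the KO list and none in the WT list, while the first start had one nearby in both. The row order is used as a place within its own list only, since neither the labels nor the files say how rows were ordered, and the lists differ in length.

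The other KO-only peaks of Ikzf1 lay inside the gene at 11716098 to 11716290 and 11751219 to 11751411, and below it at 11656461 to 11656653. The first of these was 3.52 kb and the second 8.39 kb from any WT peak. The third, inside the lncRNA gene Gm11999, was 0.636 kb from a WT peak. They stood at 43.6%, 49.8% and 68.3% of the rows of the KO list. The peak that stood highest of all at Ikzf1 was shared and intragenic, at 11726203 to 11726395 in the KO list and 11726197 to 11726415 in the WT list. It was at 6.08% of the KO list and 5.93% of the WT list, with midpoints 7 bp apart. The remaining shared peaks inside the gene stood between 23.2% and 54.9% of the KO list and between 22.1% and 57.2% of the WT list. Both shared peaks below the gene also lay in Gm11999, at 34.4% and 98.2% of the KO list and 39.3% and 66.6% of the WT list. All peaks below the gene that the rule gave to Ikzf1 therefore lie in a noncoding gene and are tied to Ikzf1 by nearness alone.

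Ikzf2 encodes Helios, a factor of Treg cells. It spans 69531207 to 69687351 on chromosome 1 and is the longest member at 156 kb, with no protein-coding gene for 423 kb below it (Erbb4) and 140 kb above it (Spag16). It had 17 peaks in the KO list, against 14 in the WT list, and 10 were shared. In the gene body 4 peaks were KO-only and 0 were WT-only, beside 7 shared ones. Outside it 3 were KO-only and 4 were WT-only, beside 3 shared ones. All WT-only peaks of Ikzf2 thus lay between genes. At least as many peaks as at Ikzf2 were found at 71 of the genes with a peak (0.487%), so the locus is among those most rich in peaks.

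The KO-only peaks inside Ikzf2 lay in its upper-coordinate part. They stood at 69626304 to 69626496, 69657120 to 69657312, 69662941 to 69663133 and 69681142 to 69681334, which is 61.0, 30.1, 24.3 and 6.11 kb from the upper gene end. A further KO-only peak (69688984 to 69689176) lay 1.73 kb beyond that end. The peak beyond the end stood at 28.8% of the rows of the KO list, and the intragenic ones at 96.0%, 56.3%, 49.6% and 36.3% in the order given. The KO-only peaks on either side of the upper end were 1.75 and 1.74 kb from the nearest WT peak, so they flanked sites with a peak in both lists. Between them lay the shared peaks at 69683114 to 69683306 and 69687078 to 69687270 in the KO list. The first stood at 17.7% of the KO list and 12.5% of the WT list, and the second, 0.177 kb from the gene end in the KO list, at 24.9% of the KO list and 19.2% of the WT list.

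The WT-only peaks of Ikzf2 lay on both sides of the gene. Those at 69469367 to 69469585 and 69498898 to 69499116 were 61.7 and 32.2 kb below it, and those at 69703771 to 69703989 and 69747098 to 69747316 were 16.5 and 59.9 kb above it. The nearest KO peak was between 5.47 and 14.5 kb away. Only the peak at 69498898 stood in the first 50% of the WT list, at 48.8%. The other KO-only peaks, at 69461276 to 69461468 and 69513617 to 69513809, lay 69.8 and 17.5 kb below the gene and stood at 75.0% and 91.2% of the KO list. The shared peak of Ikzf2 that stood highest was intragenic, at 69544372 to 69544564 in the KO list and 69544258 to 69544476 in the WT list. It was at 8.19% of the KO list and 8.72% of the WT list, and its midpoints, 101 bp apart, were the most distant of the 27 shared pairs of the family, whose median was 31 bp. Over all shared peaks the median was also 31 bp.

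The limit of the rule fell inside a peak-rich stretch above Ikzf2. The last peak assigned to Ikzf2 on that side was shared (KO list, 69752785 to 69752977) and stood at 14.8% of the KO list and 25.6% of the WT list. The next peaks, at 69759628 to 69759820 and 69768855 to 69769047 in the KO list, lay nearer to Spag16, 72.4 and 81.6 kb above Ikzf2. Both were shared. They stood at 5.93% and 2.22% of the KO list, and at 6.55% and 2.65% of the WT list, ahead of every peak the rule gave to Ikzf2. Further out, WT-only peaks at 69775584 to 69775802 and 69785184 to 69785402 lay 88.3 and 97.9 kb above Ikzf2. By the same rule Spag16, a gene of the sperm axoneme, had 3 shared peaks beside 1 KO-only and 6 WT-only ones. Nearness does not show which gene these sites act on.

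**Figure D2:**
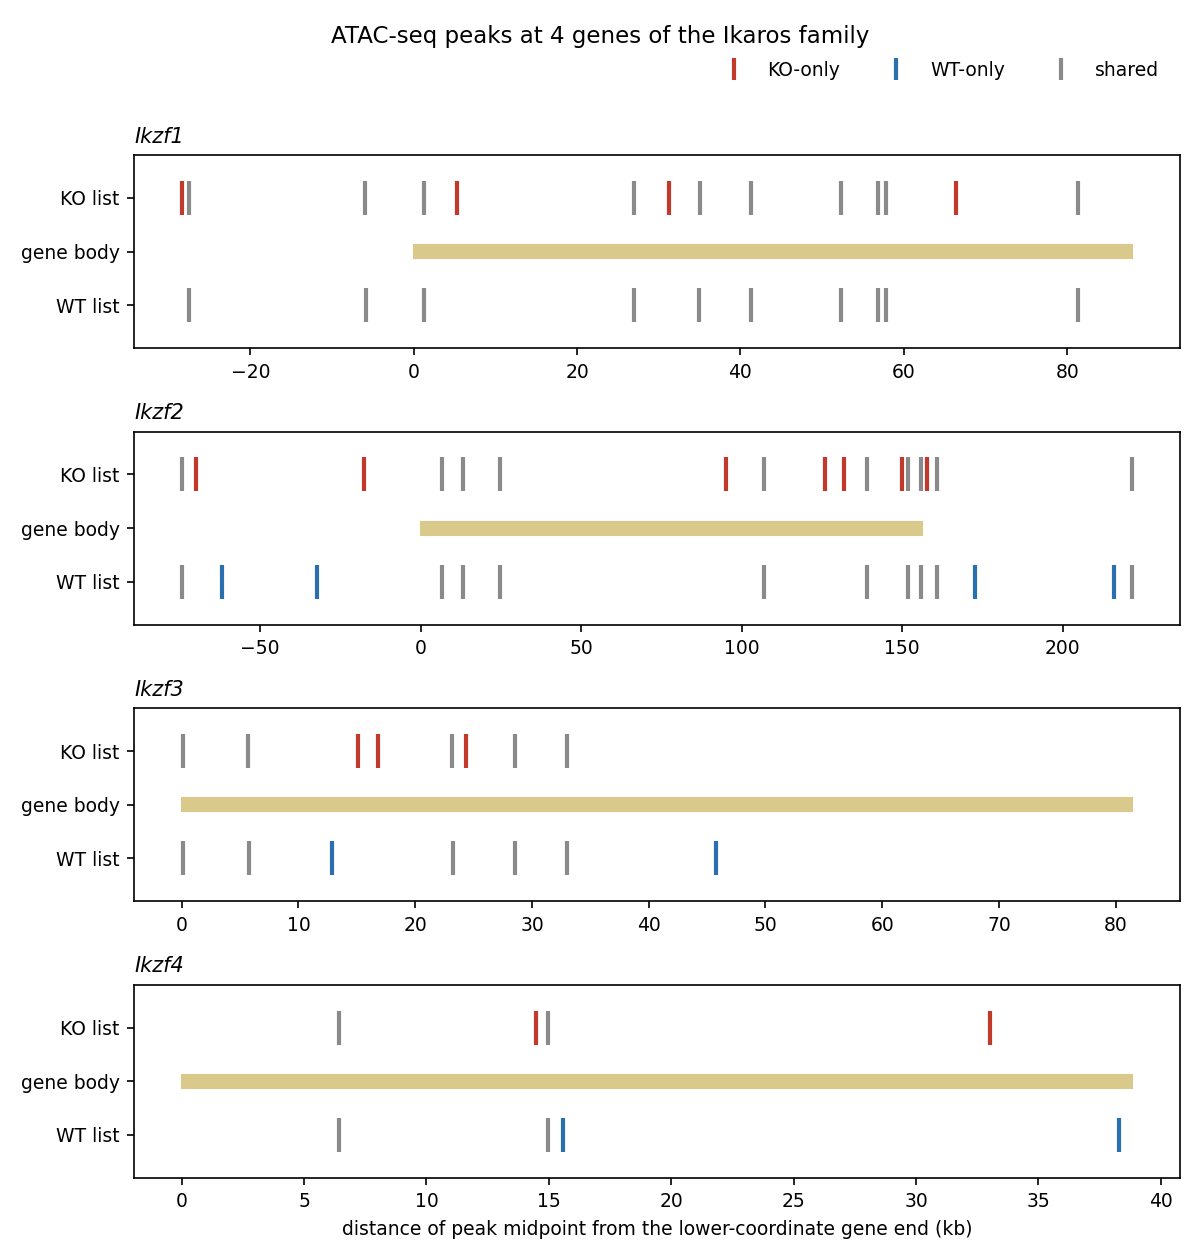
Peak midpoints at Ikzf1, Ikzf2, Ikzf3 and Ikzf4, with the KO list above and the WT list below the gene body (bar), by distance in kb from the lower-coordinate gene end. The 4 KO-only peaks inside Ikzf2 lie in its right-hand part, the 4 WT-only peaks of Ikzf2 lie outside the gene, and Ikzf1 has no WT-only peak.

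Ikzf3, which encodes Aiolos, spans 98464610 to 98546031 on chromosome 11. It had 8 peaks in the KO list, against 7 in the WT list. They fell into 3 KO-only, 2 WT-only and 5 shared peaks, all inside the gene. KO-only peaks stood at 98479653 to 98479845, 98481321 to 98481513 and 98488833 to 98489025, and WT-only peaks at 98477370 to 98477588 and 98510226 to 98510444. The first KO-only peak and the first WT-only peak were 2.06 kb apart, so the lists differed within a short intragenic stretch in both directions. The KO-only peaks stood at 41.2%, 49.4% and 71.8% of the KO list, and the WT-only peaks at 61.2% and 73.7% of the WT list. The upper gene end had no peak within 4.39 kb in the KO list or 4.43 kb in the WT list, and the nearest ones were shared and assigned to Zpbp2, a zona pellucida binding protein gene. At the lower end a shared peak had its midpoint 81 bp inside the gene in the KO list and 99 bp inside it in the WT list. That peak stood late, at 75.5% of the KO list and 72.9% of the WT list.

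Ikzf4, which encodes Eos, spans 128630839 to 128669671 on chromosome 10 in a gene-dense stretch between Rps26, a ribosomal protein gene, and Suox, the sulfite oxidase gene, which begins 0.216 kb above it. It had 4 peaks in each list, 2 KO-only, 2 WT-only and 2 shared. Some of its genotype-specific peaks were close neighbours of a peak of the other list. The KO-only peak at 128645229 to 128645421 was 276 bp from a WT peak, and the WT-only peak at 128646293 to 128646511 was 408 bp from a KO peak. Both flanked the same shared peak (KO list, 128645692 to 128645884), and the WT-only one lay in the lncRNA gene Gm26876. With a gap of up to 500 bp counted as overlap, 1 KO-only and 1 WT-only peak remained at Ikzf4. The other KO-only peak, at 128663773 to 128663965, was 5.04 kb from a WT peak. The other WT-only peak, at 128669007 to 128669225, had its midpoint 0.555 kb inside the upper gene end, where the KO list had none within 4.06 kb. It stood late in the WT list, at 83.8% of its rows. The shared peak at 128637163 to 128637355 in the KO list stood highest at this gene, at 13.5% of the KO list and 7.99% of the WT list, and its midpoints were 1 bp apart.

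Ikzf5, which encodes Pegasus, spans 131388649 to 131410518 on chromosome 7 and had no member peak in either list. A shared peak nevertheless lay just upstream of its start, in a stretch that the rule gave to the neighbour Acadsb, an acyl-CoA dehydrogenase gene that begins 0.083 kb above Ikzf5. The KO peak at 131410514 to 131410706 had its midpoint 132 bp upstream of the start of Ikzf5 and covered 193 bases of the window printed above. The WT peak at 131410577 to 131410795 had its midpoint 208 bp upstream and covered 152 bases of it. The peak stood at 10.8% of the KO list and 19.4% of the WT list. The count of 0 at Ikzf5 therefore reflects the assignment by midpoint between 2 adjoining genes.

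Gene ends were largely alike in the lists. A peak midpoint within 1 kb of a listed start, or of either end for Ikzf2, Ikzf3 and Ikzf4, was counted. It was found at 4 of the 5 genes in the KO list and at 5 in the WT list, where Ikzf4 had one in the WT list alone. Within 500 bp the number of genes was 4 in each list. Ikzf1 counts as a gene with a peak in both lists, though 2 KO peaks and 1 WT peak lay within 1 kb of its listed starts. Of the 24 genotype-specific peaks of the family 16 lay inside the genes, and of the 20489 of the whole lists 11349 lay in a gene body. Shared peaks of the family lay there too, 22 of 27, so a place inside the genes does not set the genotype-specific peaks apart. Gene bodies of the family held 12 KO-only and 4 WT-only peaks, a KO-only share of 75.0% (47.6 to 92.7%), against 45.0% (44.1 to 46.0%) of the 11349 genotype-specific peaks in all protein-coding gene bodies. Outside the gene bodies 4 peaks were KO-only and 4 were WT-only. Over all genotype-specific peaks, inside genes or not, 44.9% were KO-only. The family's numbers outside are too small for a contrast with those inside. Per 10 kb of gene body, Ikzf1 had 1.25 KO-list and 0.909 WT-list peaks, Ikzf2 had 0.704 and 0.448, Ikzf3 had 0.983 and 0.860, and Ikzf4 had 1.03 in each list. The median over the 6476 protein-coding genes of 20 to 200 kb with a peak in the body was 0.329 in the KO list and 0.348 in the WT list. These 4 genes lay above the medians in both lists. Ikzf5 had no peak in its body in either list and so is not among the genes compared.

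Genotype-specific peaks stood later in the lists than shared ones. Over the whole lists, KO-only peaks had a median place of 72.3% of rows and WT-only peaks one of 76.8%, and shared peaks 42.0% in the KO list and 38.2% in the WT list. KO-only peaks of the family had a median place of 53.0%, and WT-only peaks one of 68.8%. Shared peaks of the family had medians of 47.6% in the KO list and 35.5% in the WT list. In the KO list the 2 classes thus stood closer together in the family than over the whole list. In the first 50% of the KO list, 8 of 24 family peaks were KO-only (33.3%, 15.6 to 55.3%), against 13.1% of all peaks there. In the first 50% of the WT list, 1 of 20 was WT-only (5.0%, 0.127 to 24.9%), against 10.4% of all peaks there. The 8 KO-only peaks were 3 at Ikzf1, 3 at Ikzf2 and 2 at Ikzf3, and the single WT-only one was at Ikzf2. The interval of the KO-only share lay above the background share there, and that of the WT-only share took it in. Over the whole KO list, the family's interval (23.0 to 53.3%) took in the background share of 25.4%. Peaks of the same gene are not independent, and the family was chosen with earlier results known. The intervals therefore describe counts and are not a test. Close neighbours in the other list were also counted, in numbers too small to set the family apart from the lists as a whole. A gap of up to 1 kb was found for 3 of 16 KO-only peaks (18.8%), against 34.2% of all KO-only peaks, and for 1 of 8 WT-only peaks (12.5%), against 25.1% of all WT-only peaks.

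**Figure D3:**
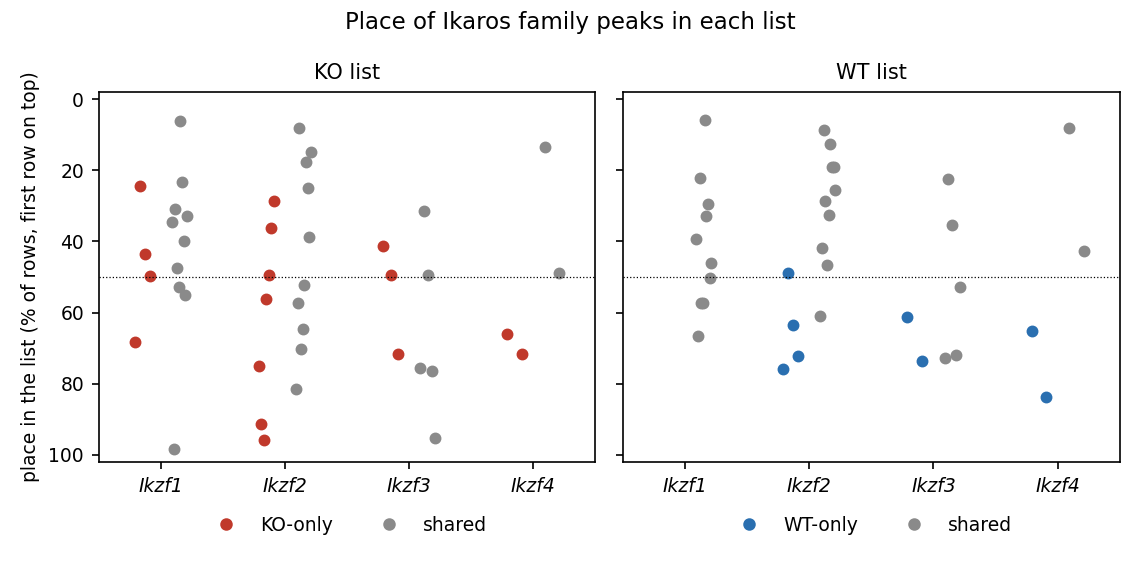
Place of each member peak in the KO list (left) and in the WT list (right), in percent of rows with the first row on top, by gene, with the dotted line at 50%. Above the line lie 8 KO-only peaks at Ikzf1, Ikzf2 and Ikzf3 and 1 WT-only peak at Ikzf2.

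Other transcription factor families of T cells were counted by the same rule. Runx1, Runx2, Runx3 and Cbfb, the Runx factors and their common partner, had 18 KO-only and 11 WT-only peaks, a KO-only share of 62.1% (42.3 to 79.3%), close to that of the Ikaros family. Among them the numbers were 6 and 2 at Runx3 and 5 and 3 at Runx2. The forkhead genes Foxp1, Foxo1, Foxo3 and Foxo4 held 16 KO-only peaks against 23 WT-only peaks, 41.0% (25.6 to 57.9%), where Foxp1 supplied 8 and 17 of them. Bach1 and Bach2, repressors that compete for AP-1-like sites, held 5 KO-only peaks against 18 WT-only peaks, 21.7% (7.46 to 43.7%), with 5 and 16 at Bach2 and 0 and 2 at Bach1. The interval of the Ikaros family lay above that of the Bach genes with no overlap, and it overlapped those of the Runx and forkhead genes. Neighbouring peaks of a gene are not independent, and these families differ in gene length and peak number, so the intervals describe counts and are not a test of families.

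Corepressor and remodelling genes whose products work with Ikaros proteins showed no surplus in either direction. The 17 genes, for NuRD, Sin3 and CtBP subunits, had 11 KO-only and 12 WT-only peaks beside 33 shared ones, a KO-only share of 47.8% (26.8 to 69.4%), near the whole-list share. KO-only peaks were more numerous at 3 genes and WT-only peaks at 5, and 8 genes had no genotype-specific peak. Mbd2, which encodes a reader of methylated DNA in NuRD, had 6 KO-only peaks and 3 WT-only ones. Hdac2, a histone deacetylase gene, had 0 and 2. Chd4, the NuRD remodelling ATPase with which Ikaros is best known to associate, had 1 and 0.

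**Figure D4:**
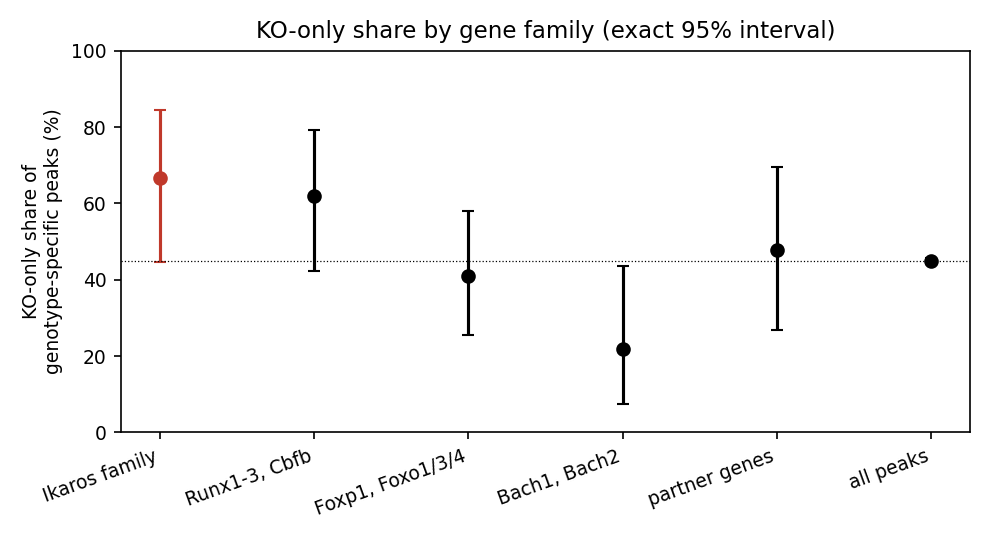
KO-only share of genotype-specific peaks in percent (vertical axis) for the Ikaros family, the Runx, forkhead and Bach genes, the partner genes and all peaks (horizontal axis), with exact 95% intervals as bars and the share over all peaks as the dotted line. The Ikaros family stands at 66.7%, the Bach genes at 21.7% and all peaks at 44.9%.

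The genes with peak counts most like those of Ikzf1 and Ikzf2 were found by the summed absolute difference in KO-only, WT-only and shared peaks over the 2 lists. For Ikzf1 the nearest was Fam3c, with 5 KO-only, 0 WT-only and 10 shared peaks and a summed difference of 1. Arhgef10, a guanine nucleotide exchange factor gene, with 4, 1 and 9, differed by 2. For Ikzf2 the nearest were the histone deacetylase gene Hdac4 (7 KO-only, 4 WT-only, 12 shared), the katanin-like gene Katnal1 (7, 6 and 10) and Lbh, a transcription cofactor gene (7, 2 and 10), each with a summed difference of 2.

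The genes that flank the members had few genotype-specific peaks apart from Spag16. Erbb4, a receptor tyrosine kinase gene below Ikzf2, had 0 KO-only and 3 WT-only peaks beside 1 shared one. At 4930512M02Rik, Mien1, Suox and Acadsb the number was 1 KO-only and 0 WT-only each. Fignl1, Zpbp2, Rps26 and Pstk had shared peaks only.

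Markers were counted by a peak midpoint within 1 kb of a gene end. Of 7 Treg and T cell markers, 5 had such a peak in the KO list and 4 in the WT list. Ikzf2, itself a member of the family, is 1 of the 7 and had such a peak in both lists. Foxp3 and Tnfrsf18 (GITR) had none in either list, and Cd4 had one in the KO list alone. Foxp3 and Tnfrsf18 had 1 and 2 shared peaks by gene assignment. Of the markers of other cells, 0 of 3 B cell genes (Ms4a1, Pax5, Cd79a), 1 of 3 NK genes (Gzma), 2 of 4 myeloid genes (Cd14 and Spi1) and 1 of 2 CD8 T cell genes (Cd8b1) had a gene-end peak, and these were the same genes in both lists. By gene assignment Pax5 had 2 peaks in the KO list alone, 0 in the WT list alone and 2 shared. The other B cell genes, Ms4a1 and Cd79a, had no peak in either list by gene assignment. B cells also use Ikzf1 and Ikzf3, and the part of other cells in the counts was not tested.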

How the data were processed

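Peaks were measured by ATAC-seq in 3 KO and 3 WT samples, and each group has 1 deposited peak list. Per the submitters' processing notes, the build is mm10 and the tools are HOMER 4.10.1, deepTools, HISAT2 2.1.0, cutadapt 1.12 with Trim Galore 0.4.2, FastQC and SAMtools 1.3, with no roles named. How peaks were thresholded, whether reads were shifted for the transposase and how replicates were joined is not given in the sources used here. Every row of the deposited lists has the score 1, which says nothing of peak height. Nearly all deposited peaks have 1 width per list, 193 bp for KO and 219 bp for WT.

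Overlap (at least 1 bp), gene assignment (RefSeq protein-coding genes, GRCm38.p6), shares and motif letters were computed in Python 3.11.15 (scipy 1.17.1, pandas 2.3.3, numpy 2.4.6). Figures used matplotlib 3.10.9. A midpoint inside several genes was counted for each. The overlap and assignment steps were tested on 800 simulated peaks, the overlap against bedtools 2.31.1, with 0 differences. With 1 list per group no test was made.

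The members and lists were chosen with earlier results of these data known. Named genes are the 5 members, their flanking genes, markers, genes of the compared lists with a difference of at least 2 peaks, and the 3 genes most alike in counts to Ikzf1 and to Ikzf2. Chd4 was added after its values were seen. A marker and a gene alike to Ikzf1 that these rules name are not reported here. Alternatives were the overlap rule, the place in the list, the list length, the gene assignment and the gene-end window.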

Additional observations from a re-analysis of the deposited data

How the results depend on the processing

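The direction of the family total held under all 8 alternatives, with KO-only minus WT-only peaks between 7 and 11 and 8 in the main count. Among peaks in the first 50% of rows of their own list, KO-only peaks numbered 8 (16 in the whole list) and WT-only peaks 1 (8 in the whole list). Shared peaks numbered 19 (27 in the whole list). Fewer peaks enter, and WT-only peaks stood late in general, at a median place of 68.8% of rows in the family and 76.8% over the whole WT list. WT-only peaks numbered 4 with gene bodies plus 10 kb and 4 with gene bodies alone, since the WT-only peaks of Ikzf2 lie farther out. The other settings, an overlap of at least 50% of the shorter peak, a gap of up to 500 bp, a WT list cut to the length of the KO list, the gene with the nearest end and noncoding genes included, moved no family total by more than 1.5 times. Differences at single members turned in none of them. The 50% overlap rule and the cut WT list could not change the family counts. The smallest overlap of a shared pair was 105 bp, where KO peaks are 193 bp wide. The last family peak of the WT list was in row 32046, and the cut list kept 36182 rows. The number of members with a peak at a start or end in both lists was 4 with windows of 500 bp, 1 kb and 2 kb. No paired analysis was possible because each group has a single list for its 3 samples, and for the same reason no sample could be left out. Depth is unknown, so a peak called in one list alone cannot be told apart from one just under the threshold in the other.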
